A study of Rattus norvegicus with 6 samples.

Results

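The insulin-like growth factor (IGF) genes were followed in cultured rat ovarian granulosa cells, which line the follicle and nourish the oocyte. The group of 10 genes was taken by symbol and comprised the ligands Igf1 and Igf2, the receptors Igf1r, Insr and Igf2r, and the binding proteins Igfbp2, Igfbp3, Igfbp4, Igfbp5 and Igfbp6. All 10 were among the 17525 genes of the table, and all had reads in every library. The cells came from ovaries of SD rats aged 21 days that had received 60 IU of PMSG, a serum gonadotropin that drives follicle growth, 48 h earlier. The ATR group has 3 libraries, called ATR 1, ATR 2 and ATR 3, and the Control group, whose cells came from rats primed in the same way, has 3 libraries that are not analysed here. The series' title concerns long atrazine exposure, but no label spells out ATR, and neither the dose, nor the duration, nor whether animals or cultures were exposed is stated there. The labels do not say whether the ATR libraries came from separate animals or cultures, so all spread below may be technical. No value below is an effect of ATR.

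IGF1 and IGF2 are secreted peptides that signal mainly through the tyrosine kinase receptor IGF1R, and with lower affinity through the related insulin receptor. IGF2R carries no kinase and takes IGF2 to the lysosome. The binding proteins hold the ligands outside the cell and are cut by proteases that release them. In the rat ovary, IGF1 made by granulosa cells amplifies the response to follicle-stimulating hormone, while Igf2 is known mainly from theca cells, and IGFBP4 and IGFBP5 are known from granulosa cells of follicles undergoing atresia.

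The libraries held 18677212 to 19170552 reads assigned to genes, of which the 10 genes took 83825 in ATR 1, 72270 in ATR 2 and 75865 in ATR 3. Granulosa transcription factors were present, with Gata4 at 189, Nr5a1 at 60.9 and Foxl2 at 55.1 TPM on average, where TPM is the deposited level scaled for transcript length and library size. Of 13 granulosa markers 10 reached a mean of 1 TPM, as did 71.4% of all genes, and Amh, Cyp19a1 and Lhcgr did not. The granulosa sum was 1549 to 1678 TPM, most of it from Ccnd2, Inha and Inhba at means of 460, 443 and 282 TPM. Fshr stood at 5.80 TPM and Cyp11a1 at 1.02 TPM. Amh had 0, 2 and 1 reads, the aromatase gene Cyp19a1 had 1, 1 and 2.33 estimated reads, and Lhcgr had 5, 3 and 4 reads across ATR 1, 2 and 3. Markers of other cells were also found. Sums were 2122 to 2277 TPM for 9 surface epithelium genes and 16151 to 17461 TPM for 6 smooth muscle genes. Nearly all of the smooth muscle sum came from Tagln and Acta2, at means of 10890.5 and 5496 TPM, while Notch3 stood at 1.34 TPM. The 7 stromal genes summed to 613 to 645 TPM and 6 leukocyte genes to 96.4 to 121 TPM. Which cells made these transcripts was not measured. Theca cell markers summed to 81.2 to 115 TPM, nearly all of it from Star, and the theca-defining Cyp17a1 and Insl3 had at most 3.63 and 1 reads in a library. Endothelial markers summed to 3.90 to 4.53 TPM. In such bulk RNA, fewer cells of a type and less RNA per cell cannot be told apart.

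The windows around the annotated transcription starts are shown for the most abundant binding protein genes, Igfbp2 and Igfbp5, for the main ligand Igf1, and for Igfbp4 and Igfbp6, which were far lower and lowest in ATR 1, the library where Igfbp5 was highest. Each holds 250 bases before and 50 bases after the start, is credited to RefSeq, and is read 5′ to 3′ on the strand of the gene. Capitals mark matches on either strand to GGGCGG, the GC box bound by SP1, to TATAAA, to the E-box CACGTG and to TGTTTAC, a core motif of FOXO factors.
Igfbp2 (GRCr8, chr9:81864561-81864860, plus strand): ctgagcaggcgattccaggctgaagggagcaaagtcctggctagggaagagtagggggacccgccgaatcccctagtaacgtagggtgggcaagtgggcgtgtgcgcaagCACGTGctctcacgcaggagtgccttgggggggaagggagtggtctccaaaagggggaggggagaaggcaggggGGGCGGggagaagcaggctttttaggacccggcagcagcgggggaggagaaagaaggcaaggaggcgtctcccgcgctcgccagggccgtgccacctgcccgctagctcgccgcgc
Igfbp5 (GRCr8, chr9:81914138-81914437, minus strand): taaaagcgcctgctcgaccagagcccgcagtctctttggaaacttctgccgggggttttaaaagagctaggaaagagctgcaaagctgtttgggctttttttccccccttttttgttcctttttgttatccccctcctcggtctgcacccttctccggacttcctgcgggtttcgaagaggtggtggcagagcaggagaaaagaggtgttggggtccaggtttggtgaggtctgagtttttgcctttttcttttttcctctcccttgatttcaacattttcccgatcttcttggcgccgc
Igf1 (GRCr8, chr7:24172282-24172581, plus strand): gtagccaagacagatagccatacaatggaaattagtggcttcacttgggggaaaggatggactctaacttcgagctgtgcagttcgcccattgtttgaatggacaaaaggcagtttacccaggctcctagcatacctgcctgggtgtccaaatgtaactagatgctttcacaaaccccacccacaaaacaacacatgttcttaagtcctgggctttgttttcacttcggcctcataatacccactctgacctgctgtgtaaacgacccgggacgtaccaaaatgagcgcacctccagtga
Igfbp4 (GRCr8, chr10:84491221-84491520, plus strand): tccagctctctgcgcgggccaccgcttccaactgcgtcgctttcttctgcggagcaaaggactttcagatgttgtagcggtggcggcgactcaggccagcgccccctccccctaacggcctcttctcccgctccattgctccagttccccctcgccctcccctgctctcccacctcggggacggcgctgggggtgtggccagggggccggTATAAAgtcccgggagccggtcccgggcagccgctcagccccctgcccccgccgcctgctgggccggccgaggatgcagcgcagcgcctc
Igfbp6 (GRCr8, chr7:135154669-135154968, plus strand): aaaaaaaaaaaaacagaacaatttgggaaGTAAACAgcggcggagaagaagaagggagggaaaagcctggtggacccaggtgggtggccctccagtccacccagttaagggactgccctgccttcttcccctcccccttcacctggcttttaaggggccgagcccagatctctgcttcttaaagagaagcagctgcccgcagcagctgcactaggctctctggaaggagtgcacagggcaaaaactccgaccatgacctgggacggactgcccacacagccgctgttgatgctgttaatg

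All 10 genes were matched to RefSeq by gene identifier. GGGCGG was found for Igfbp2, Igf2, Igf1r and Igf2r, that is 4 of the 10 genes, and in 33.1% of all 33469 windows of this length. CACGTG was found for Igfbp2, Igf1r and Igf2r, against 6.42% of all windows. TATAAA was found for Igfbp4 alone, against 14.2% of all windows, and TGTTTAC for Igfbp6 and Insr, against 3.78%. CCAAT was also searched and was in none of the members' windows, against 37.5% of all. A member counts once if any of its windows matched, whereas the shares are of all windows, which belong to 27457 genes. No marked match overlaps another. Igfbp2 had 66.7% G and C with 20 CG dinucleotides, whereas Igfbp5 had 50.7% with 11 and Igf1 48.3% with 7, against a median of 51.7% and 7 over all windows. Windows of the other members held from 55.3% G and C, for Igfbp6, to 78% for Igf1r. Igfbp2 and Igfbp5 both lie on chromosome 9 of GRCr8 with 0 protein-coding genes between them. These windows describe annotated starts, and the starts used in these cells were not measured.

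The IGF system of these cells was dominated by transcripts of binding proteins. Igfbp2, which binds IGF2 with preference, stood at 2423, 2141 and 2316 TPM across ATR 1, 2 and 3, a mean of 2293 ± 142 TPM (SD, n = 3) and rank 36 of the 17525 genes. Igfbp5, a matrix-associated binding protein, stood at 1817, 1388 and 1373 TPM, a mean of 1526 ± 252 TPM and rank 73. Both were among the 154 genes (0.879% of all) at 1000 TPM or more. Together they held 88.5%, 87.1% and 87.8% of the TPM of the 10 genes, and 98.9% ± 0.398 of that of the binding proteins. Igfbp2 exceeded Igfbp5 in each library, by 1.33, 1.54 and 1.69 times, and the ranges of the pair did not overlap.

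The other binding proteins were far lower. Igfbp6, which prefers IGF2, stood at 12.9, 30.2 and 20.5 TPM across ATR 1, 2 and 3, from 96, 226 and 157 reads, a mean of 21.2 ± 8.67 TPM. Igfbp4, an inhibitor of IGF action that the protease PAPP-A cleaves, stood at 17.3, 22.9 and 19.7 TPM, a mean of 19.9 ± 2.81 TPM. Their ranges overlapped, and Igfbp6 was the higher in 2 of 3 libraries. Igfbp3, the main carrier of IGFs in serum, was lowest of the 10, at 2.01, 2.47 and 1.92 TPM from 43, 53 and 42.03 estimated reads. Igfbp5 exceeded Igfbp4 by 105, 60.7 and 69.7 times, so the 2 binding proteins known from atretic granulosa cells stood far apart in level.

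Igf1 was the main ligand transcript and the third member in order of level, at 329, 269 and 279 TPM across ATR 1, 2 and 3, which put it at rank 596 of all genes. Igf2 stood at 33.9, 31.9 and 27.1 TPM, a mean of 30.9 ± 3.48 TPM. Igf1 thus exceeded Igf2 by 9.72, 8.45 and 10.3 times. Igf2 was detected where the theca-defining genes Cyp17a1 and Insl3 were at or near 0. Stromal, smooth muscle and surface epithelium markers were also present in these libraries, and which cells made Igf2 was not tested.

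Of the receptors, Igf2r was the most abundant, at 77.9, 89.4 and 86.2 TPM across ATR 1, 2 and 3. Igf1r followed at 64.8, 62.6 and 64.3 TPM, a mean of 63.9 ± 1.18 TPM, and the ranges of the 2 did not overlap. The insulin receptor Insr stood at 14.0, 12.2 and 13.5 TPM. Igf1r exceeded Insr by 4.64, 5.12 and 4.76 times and lay below Igf2r, which exceeded it by 1.20, 1.43 and 1.34 times.

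**Figure D1:**
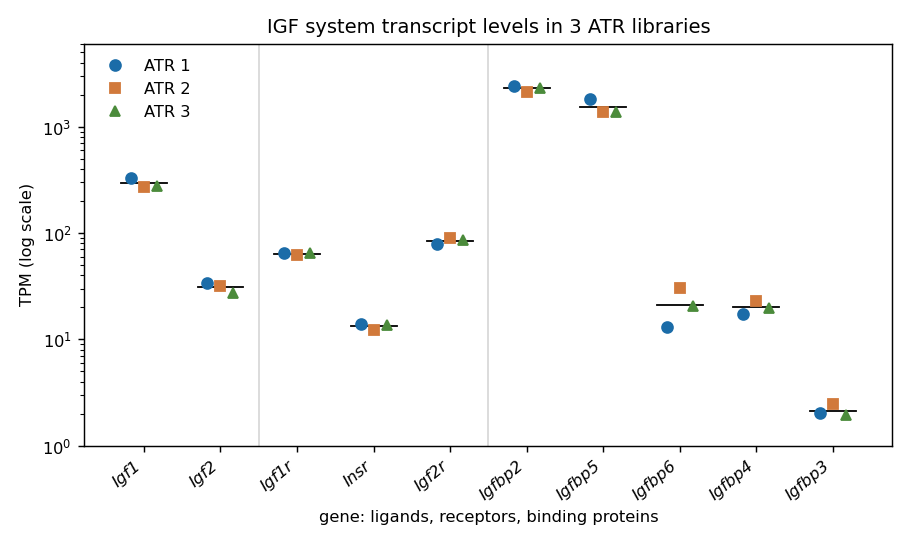
Transcript level (TPM, log scale) of the 10 IGF genes, ordered as ligands, receptors and binding proteins, with 1 symbol for each ATR library and a bar at the mean. Igfbp2 and Igfbp5 lie above 1000 TPM, Igfbp3 near 2 TPM, and the libraries stand furthest apart for Igfbp6, at 12.9 to 30.2 TPM.

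In falling order of mean level the genes were Igfbp2, Igfbp5, Igf1, Igf2r, Igf1r, Igf2, Igfbp6, Igfbp4, Insr and Igfbp3. Of the 9 neighbouring pairs, the ranges overlapped for Igf2 with Igfbp6 and for Igfbp6 with Igfbp4, and not for the other 7. All 10 genes reached a mean of 1 TPM, as did 71.4% of all genes, and the median of the 10 was 47.4 TPM, against 10.1 TPM over all genes. In sum the binding proteins stood at 4272, 3584 and 3731 TPM, the ligands at 363, 301 and 306 TPM and the receptors at 157, 164 and 164 TPM across ATR 1, 2 and 3. The ratio of binding protein to ligand transcripts was 11.8, 11.9 and 12.2, a mean of 12.0 ± 0.221 (SD, n = 3). It varied less between libraries than its parts did, and it stood at 4.84 ± 0.236 without Igfbp2. Counted as reads rather than per transcript length it was 3.18 ± 0.0619. These are ratios of transcripts and not of proteins.

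**Figure D2:**
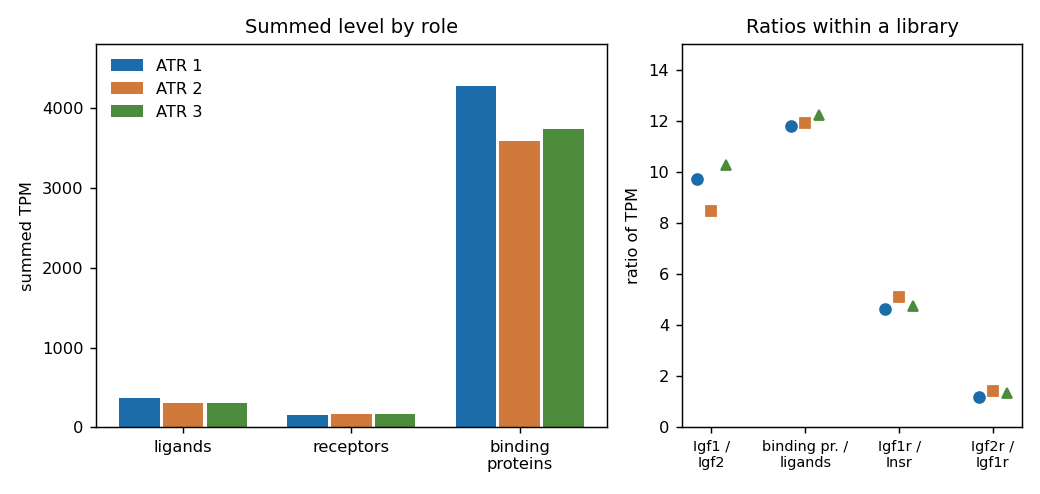
Left, summed TPM of 2 ligands, 3 receptors and 5 binding proteins in each ATR library. Right, ratios of TPM within each library, where the binding protein to ligand ratio lies at 11.8 to 12.2 although the binding protein sum spans 3584 to 4272 TPM.

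The libraries were then compared gene by gene. For every gene with at least 30 reads in all, a chi-square test asked whether the 3 counts departed from the scaled library sizes by more than counting noise, with Benjamini-Hochberg adjustment over all 13309 genes tested and a call at 0.05. The test sets libraries of 1 group against each other and no conditions. Of the 10 IGF genes 7 passed, against 23.2% of all genes tested. Such a test calls smaller differences in genes with more reads. Of the 5 members that averaged over 5000 reads per library 4 passed, and at that depth 76.5% of all genes passed. Igf2, Igfbp4 and Igfbp6 passed at lower depth, where the 76.5% is no measure for them. The count of 7 is not read as a property of the family. The median SD on the log2 scale of CPM + 0.5 (CPM being reads scaled to library size) was 0.15 over the 10 genes and 0.09 over all genes tested.

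Those that passed moved in both directions. Of the 7, Igf1, Igf2, Igfbp2 and Igfbp5 were highest in ATR 1, and Igf2r, Igfbp4 and Igfbp6 were lowest in ATR 1 and highest in ATR 2. Over all genes tested, 8.24% passed and were highest in ATR 1, 9.11% passed and were lowest there, and 7.48% passed and were highest in ATR 2. Most differences were small. Igfbp5 reads in ATR 1 exceeded those in ATR 3 by 1.29 times (exact Clopper-Pearson 95% interval 1.26 to 1.31), and Igf1 reads in ATR 1 exceeded those in ATR 2 by 1.23 times (1.21 to 1.26). For Igfbp2 the ratio of ATR 1 to ATR 2 was 1.11 (1.09 to 1.13), and for Igf2r the ratio of ATR 2 to ATR 1 was 1.17 (1.13 to 1.21). Igfbp4 had a ratio of ATR 2 to ATR 1 of 1.35 (1.17 to 1.57). Each read ratio with an interval, here and below, sets the gene's highest library against its lowest, chosen after the counts were seen. Such ratios exceed 1 by construction, and the intervals do not allow for the choice. The intervals cover counting error only, as they hold no term for variation between libraries. Molecules carry no identifiers, so copies of 1 molecule may count as separate reads.

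Igfbp6 stood apart from the other members. Its reads in ATR 2 exceeded those in ATR 1 by 2.39 times (1.88 to 3.07), and ATR 3 lay between them. It was the single member with at least 1.5-fold between libraries, out of 9 with a mean of 5 CPM, a spread that 3.06% of all genes at that level showed. Next, edgeR's common dispersion, shared by all genes (biological coefficient of variation 8.24%), was added to the counting noise of the chi-square test. Igfbp6 alone of the 10 then passed, at an adjusted p of 9.35e-05, along with 3.25% of all genes tested.

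Igf1r, Insr and Igfbp3 did not pass the test. Igf1r reads in ATR 1 exceeded those in ATR 3 by 1.02 times (0.984 to 1.06), and Insr reads in ATR 1 exceeded those in ATR 2 by 1.12 times (1.00 to 1.25). Igfbp3, with few reads, had a ratio of ATR 2 to ATR 3 of 1.28 (0.839 to 1.97). The calls depended on single libraries. Without ATR 1 the test no longer called Igfbp5 (adjusted p = 0.820), Igf2r (0.269) or Igfbp4 (0.183), without ATR 2 it no longer called Igfbp2 (0.127) or Igfbp4 (0.154), and without ATR 3 it no longer called Igf2 (0.551). Igf1 and Igfbp6 passed with any 1 library left out.

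**Figure D3:**
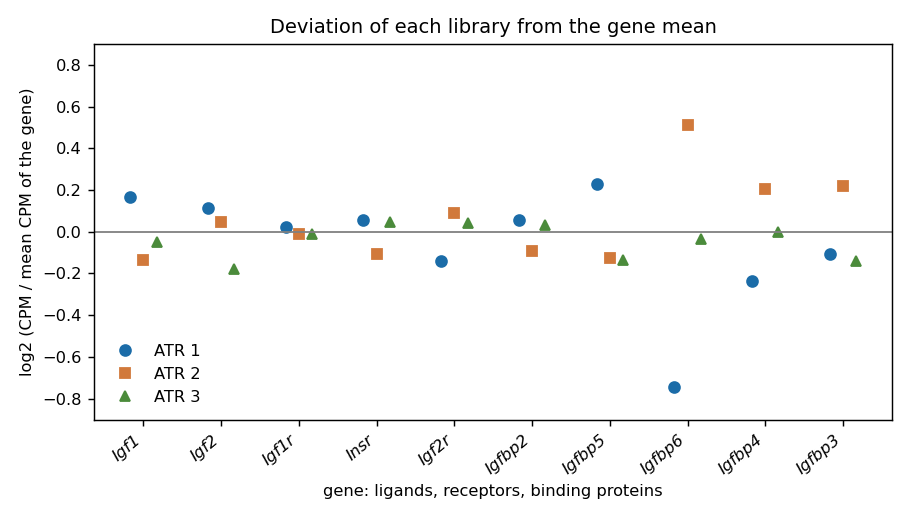
Deviation of each ATR library from the gene's mean, as log2 of CPM over mean CPM, for the 10 IGF genes. Igfbp6 spans -0.75 in ATR 1 to 0.51 in ATR 2, Igfbp5 and Igf1 are highest in ATR 1 at 0.23 and 0.17, and Igf1r lies within 0.02 of its mean.

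The test between libraries was also read for cell type markers. Of all genes tested 23.2% passed, and 76.5% of those with a mean of at least 5000 reads. Of the markers tested, 7 of 10 granulosa, 6 of 7 stromal, 5 of 6 smooth muscle and 6 of 7 surface epithelium genes passed. Tagln, Acta2, Inha and Inhba were among those of that depth. The counts are not read as a property of the lists. Of the 7 granulosa markers that passed the test, Fshr, Inha, Foxl2 and Gata4 were highest in ATR 1, as were Igf1 and Igfbp5. Star was lowest in ATR 1, while Inhba was highest in ATR 2 and Ccnd2 in ATR 3. Inha, the inhibin alpha subunit, stood at 522, 427 and 378 TPM, and Foxl2 at 63.6, 53.8 and 48.0 TPM across ATR 1, 2 and 3. Of the 6 stromal markers that passed, Thy1, Prrx1, Pdgfra and Lum were lowest in ATR 1, as was Igfbp6, whereas Col14a1 and Ogn were highest there. Pdgfra, a receptor of stromal fibroblasts, stood at 1.36, 5.27 and 3.67 TPM across ATR 1, 2 and 3. The summed stromal level lay at 613, 645 and 643 TPM and the summed granulosa level at 1678, 1566 and 1549 TPM. Smooth muscle and surface epithelium markers also moved in both directions. Of 5 smooth muscle markers that passed, Acta2, Tagln and Myh11 were highest in ATR 1, whereas Cnn1 and Des were highest in ATR 2. Des, a muscle intermediate filament, stood at 7.22, 20.4 and 7.69 TPM across ATR 1, 2 and 3. Of 6 surface epithelium markers that passed, Upk3b and Lrrn4 were highest in ATR 1 and Krt8, Krt18 and Wt1 lowest. Msln, at 35.3, 51.6 and 30.3 TPM, was highest in ATR 2 and lowest in ATR 3. The summed smooth muscle level lay at 17461, 16307 and 16151 TPM and the summed surface epithelium level at 2277, 2122 and 2199 TPM. Of the 6 leukocyte markers tested Lyz2 alone passed, and it was lowest in ATR 1. Of 5 endothelial markers 3 had enough reads for the test, and of 4 oocyte markers 1 had. None of these passed, and so few tested genes say little about those cell types. The part of any of these cell types in the values of the IGF genes was not tested.

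**Figure D4:**
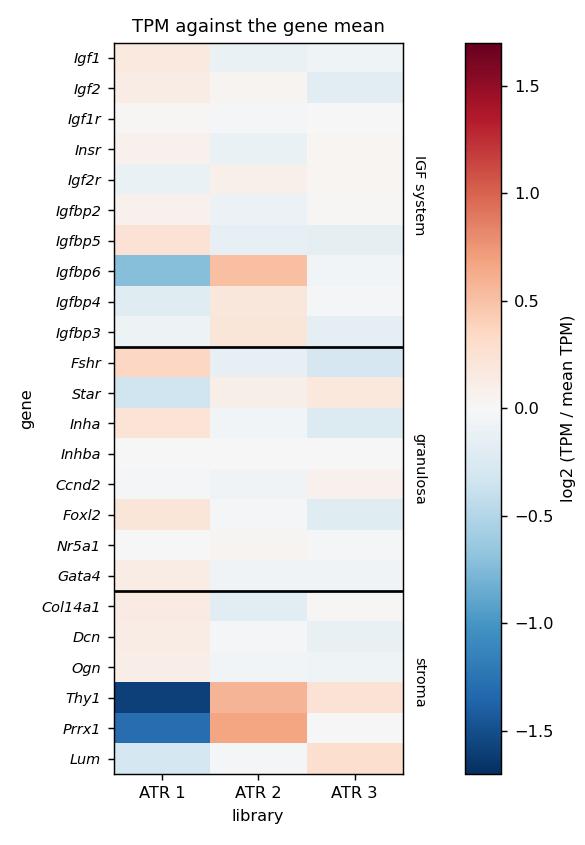
Each ATR library against the gene's mean (colour, log2 of TPM over mean TPM) for the 10 IGF genes and for granulosa and stromal markers with a mean of at least 5 TPM. Igfbp6, Thy1 and Prrx1 are lowest in ATR 1 and highest in ATR 2, and Col14a1, Dcn and Ogn are highest in ATR 1.

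Genes that govern the release and uptake of IGFs were expressed at widely differing levels. Of 16 listed genes 12 were analysed, with a median of 52.6 TPM against 10.1 TPM over all genes. Of the 12, 11 reached 1 TPM, as did 71.4% of all genes, and 9 passed the test between libraries, against 23.2% of all genes tested and 76.5% of those with a mean of at least 5000 reads. Htra1, Hsp90b1, Lrp1 and Furin, all among the 9, are of that depth. Igfbp7, Pappa2, Stc1, Stc2 and Adam12 passed at lower depth, where the 76.5% is no measure for them. The count is not read as a property of the list. The leaders were Htra1, a secreted serine protease known in human to cleave binding proteins, at 1865 ± 18.8 TPM, Hsp90b1, the chaperone that folds IGFs, at 1198 ± 122 TPM, and Igfbp7, a related protein of low IGF affinity, at 301 ± 23.9 TPM (SD, n = 3 each). Htra1 lay between Igfbp5 and Igfbp2 in each library. Pappa, the protease of IGFBP4, had only 85, 71 and 67 reads across ATR 1, 2 and 3, at 1.20, 1.08 and 0.830 TPM, and its relative Pappa2, which cleaves IGFBP5 in human, had 25, 38 and 7 reads. Stc1, a stanniocalcin that inhibits PAPP-A in human, stood at 65.1, 45.5 and 51.9 TPM, and its relative Stc2 at 9.34, 16.0 and 14.6 TPM. The libraries ordered these relatives in opposite ways, with ATR 1 highest for Stc1 and lowest for Stc2. Adam12, a metalloprotease known in human to cleave IGFBP3 and IGFBP5, was at 13.4, 35.6 and 23.8 TPM. Its reads were 2.74 times (2.54 to 2.95) as many in ATR 2 as in ATR 1.

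Signalling genes below the receptors were present almost throughout. Of 30 analysed, 29 reached 1 TPM, against 71.4% of all genes. The median of the 30 was 32.1 TPM, against 10.1 TPM over all genes. Of the 29 with enough reads for the test between libraries 7 passed, against 23.2% of all genes tested. Akt1, the kinase downstream of PI3 kinase, led at 310 ± 6.37 TPM, followed by Grb14, an adaptor that inhibits the insulin receptor, at 250 ± 25.7 TPM and by Rheb, the activator of mTORC1, at 198 ± 4.02 TPM. Of the receptor substrates, Irs2 at 15.5 ± 0.632 TPM exceeded Irs1 at 5.46 ± 0.776 TPM, and Irs4 had 1 read in all. Grb10, a growth-inhibiting adaptor of both receptors, stood at 7.47, 16.0 and 16.9 TPM across ATR 1, 2 and 3, its reads being 2.34 times (2.05 to 2.66) as many in ATR 3 as in ATR 1. ATR 1 was thus low for Grb10 and close to its fellows for Akt1. Foxo1, a transcription factor that AKT excludes from the nucleus, was at 85.6, 76.8 and 76.3 TPM.

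The IGF2 mRNA-binding proteins, which control translation and stability of Igf2 and other messages, were near 1 TPM. Igf2bp1 stood at 0.800, 0.370 and 2.08 TPM across ATR 1, 2 and 3, from 38, 27 and 97 reads. Igf2bp2 had 34, 53 and 65 reads and also passed the test, and Igf2bp3 with 64, 49 and 52 reads did not. Of the insulin and relaxin family, 5 genes were measured and none reached 1 TPM or the 30 reads that the test required. Rxfp1, the relaxin receptor, led them with 8, 3 and 5 reads, and the ligands Insl3, Insl6, Rln1 and Rln3 had at most 1 read in a library. Igfbp1, Igfals, Ins1 and Ins2 are not analysed here.

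**Figure D5:**
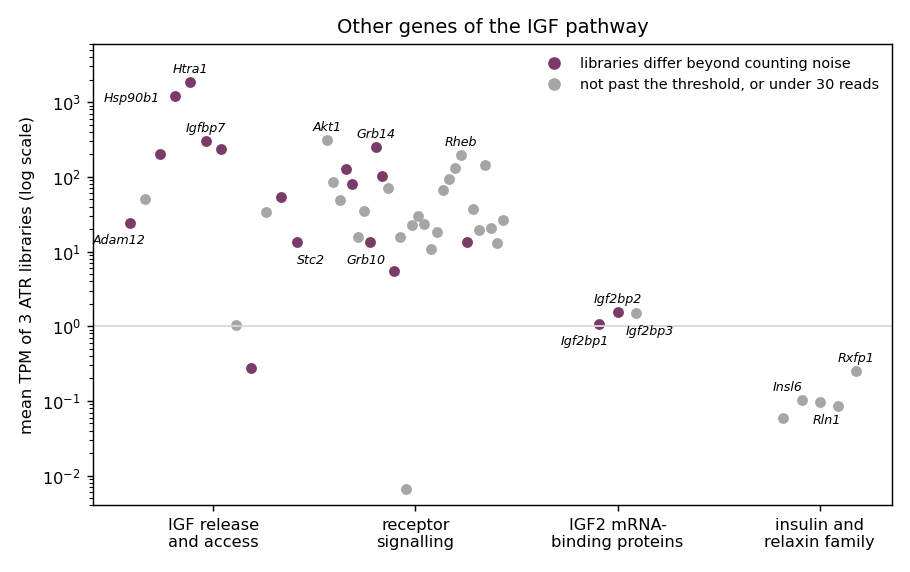
Mean TPM (log scale) of other IGF pathway genes in the 3 ATR libraries, by list, with dark points for genes whose libraries differ beyond counting noise. Htra1 and Hsp90b1 exceed 1000 TPM, while the 5 measured insulin and relaxin genes lie below 1 TPM.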

How the data were processed

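Poly(A) RNA libraries of the ATR group were used, and the Control columns, and so the contrast of ATR with Control, are not analysed here. Per the file headers, the authors deposited a TPM value and an estimated count of reads per gene and library. Per the submitters' processing notes, StringTie 2.1.5, HISAT2 2.2.1 and fastp 0.20.1 were used, with the builds Rnor_6.0 and GRCm38 listed beside them and no roles stated. Neither the sharing of reads between similar genes nor the use of strand is described there. The counts of Igf1r and Igfbp3 are not whole in ATR 3, so a few reads may be shared. The deposited counts were rounded. TMM scaling and the common dispersion came from edgeR 4.0.16 (R 4.3.3, filterByExpr with a minimum count of 10), and alternative size factors came from DESeq2 1.42.0. The chi-square test was run in Python 3.11.15 with scipy 1.17.1 and was tested on simulated counts. At this depth counting error is small for abundant genes. Promoter windows are on GRCr8, not the authors' build, and were matched by gene. The members and lists were chosen with earlier results of these data known. Named genes are all members, the 3 highest of each further list, and list genes at a mean of 5 TPM that passed the test with 1.5-fold between libraries. All other genes named, among them Pappa, Pappa2, Stc1, the Irs genes, Foxo1, the markers set beside the members and the growth hormone and imprinted genes of the closing section, were named outside that rule, after their values were seen.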

Additional observations from a re-analysis of the deposited data

How the results depend on the processing

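No paired analysis was possible because only ATR libraries were analysed, and what had been planned for ATR against Control was not run. The count of members with spread beyond counting noise was 7 with TMM scaling, with library totals, with DESeq2 size factors, with other read minimums and with whole-count genes alone. It was 4 to 6 with 1 library left out, lowest without ATR 1, and a pair of libraries gives the test less power. Of the 44 other pathway genes tested, 18 passed, against 23.2% of all genes tested, and 8 to 14 passed with 1 library left out. The share of all genes that passed with a library left out is not given here. The drops are therefore not read as particular to these genes. The next alternatives were chosen after seeing the data. With a common negative binomial dispersion 1 of the members and 4 of the pathway genes passed, against 3.25% of all genes tested. With a 1.5-fold rule the counts were 1 and 3, against 3.06% of all genes at a mean of at least 5 CPM. The binding protein to ligand ratio of 12.0 was 3.18 by reads and 4.84 without Igfbp2. At 7 to 53 reads, as for Igfbp3 and Pappa2, depth limits the comparison.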

Other observations

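Genes of neighbouring growth pathways were looked up after the values above had been seen. Of 6 genes of the growth hormone pathway, which drives Igf1 in liver, all reached 1 TPM, as did 71.4% of all genes. The receptor Ghr stood at 7.39, 6.64 and 6.60 TPM across ATR 1, 2 and 3, and the feedback inhibitor Socs2 at 18.6, 11.6 and 13.4 TPM. Socs2 was the only one of the 6 whose libraries differed beyond counting noise, against 23.2% of all genes tested.

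Of 9 measured genes that are imprinted or grouped with imprinted growth genes, in the company of Igf2 and Igf2r, 8 reached 1 TPM, as did 71.4% of all genes, and 6 passed that test, against the same 23.2% of all genes tested. Dlk1, a membrane protein of progenitor cells, had 8, 59 and 56 reads across ATR 1, 2 and 3, and its ATR 2 reads were 7.50 times those of ATR 1 (95% interval 3.57 to 18.2, counting error only). Plagl1, a zinc finger factor, stood at 11.3, 14.9 and 10.7 TPM, and Mest at 7.29, 9.38 and 5.93 TPM. ATR 1 was lowest for Dlk1, Grb10 and Gnas, while Igf2 was highest there.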
